A study of Mus musculus with 4 samples.

Results

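Granzymes C, D, E, F and G are 5 serine proteases of the mouse, encoded by Gzmc, Gzmd, Gzme, Gzmf and Gzmg. Their rows were taken by symbol from a table of 37305 rows, where each of the 5 symbols stands on 1 row. They were selected on their FPKM values in all 4 libraries, which followed the replicate numbers, so these values are a description and carry no test. RNA was measured in primary natural killer (NK) cells from spleens of C57BL/6 mice at postnatal day 56. All cells were cultured with mouse IL-15, a cytokine that keeps NK cells alive, at 50 ng/ml for 24 hours. The control group (2 libraries, numbered 1 and 2) then received mock treatment for 24 hours, and the DKK2 group (2 libraries, numbered 1 and 2) received DKK2 at 200 ng/ml over the same time. DKK2 is a secreted regulator of Wnt signalling that acts on the co-receptors LRP5 and LRP6. The labels do not say whether libraries came from separate animals or cultures, nor whether libraries with the same number share an animal, a culture or a day.

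Granzymes are stored in the granules of cytotoxic lymphocytes and enter target cells with the help of perforin. Granzymes A and B are the abundant members and their role in killing is well described. Granzymes C to G belong to a group of closely related genes that expanded in rodents, lie side by side on mouse chromosome 14 next to Gzmb, and are known to be switched on late and strongly in lymphocytes that are activated and cultured with IL-2 or IL-15. In the GENCODE annotation the order along the chromosome is Gzme, Gzmd, Gzmg, Gzmn, Gzmf, Gzmc and Gzmb, all on the minus strand, with the cathepsin G gene Ctsg and the basophil protease gene Mcpt8 beyond Gzme.

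The unit is FPKM, fragments scaled to transcript length and library size, so levels of different genes can be set side by side within a library. The steps between low values gave the relative depth of the libraries, which was 0.351 to 0.401 of that of control replicate 1 in the other 3. Of 12 NK cell marker symbols, with Cd244 and Cd244a naming the same gene, 11 were in the table. The symbol not found was Cd244a, and none of the 11 was listed at 0 in any library. The activating receptor Ncr1 was at 193 to 389 FPKM and the NK receptor Klrb1c at 272 to 523 FPKM. Markers of other cells were also present, at levels that differed widely between the libraries. In bulk RNA, fewer cells that express a gene and less RNA per cell cannot be told apart.

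Gzmc, encoding granzyme C, was by far the most abundant of the 5. Control replicates 1 and 2 had 1051 and 3597 FPKM of it, and DKK2 replicates 1 and 2 had 506.3 and 3123 FPKM. The 2 libraries numbered 2 were thus high in both groups and the 2 numbered 1 were low, while the ranges of control and DKK2 overlapped. Replicate 2 stood 3.42-fold above replicate 1 among the controls and 6.17-fold above it with DKK2.

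Gzmd, encoding granzyme D, was at 103.7 and 316.2 FPKM in control replicates 1 and 2 and at 68.6 and 150.3 FPKM in DKK2 replicates 1 and 2. Gzme, encoding granzyme E, had 68.31 and 164.2 FPKM in the controls and 33.62 and 79.26 FPKM with DKK2. Both genes showed the same order of libraries as Gzmc, with smaller steps between the replicates. For Gzmd the step was 3.05-fold in the controls and 2.19-fold with DKK2, and for Gzme 2.40-fold and 2.36-fold.

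Gzmf, encoding granzyme F, had the widest step that was similar in both groups. It was at 9.014 and 114.6 FPKM in control replicates 1 and 2, a 12.7-fold step. With DKK2 it was at 4.992 and 74.67 FPKM, a 15.0-fold step. The treatment groups overlapped almost completely, since each held 1 library under 10 FPKM and 1 at over 70 FPKM. Of all 12275 genes tested, 9 (Gzmf among them) rose from replicate 1 to replicate 2 by at least as much as Gzmf did. The measure was the smaller of the 2 differences of a gene, 3.53 for Gzmf on the log2(FPKM + 1) scale. The same count was 65 for Gzmc (1.77), 159 for Gzme (1.21), 183 for Gzmd (1.12) and 322 for Gzmg (0.72). Since these granzymes were chosen for this step, the counts describe its size and nothing is read from them.

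Gzmg, encoding granzyme G, was the lowest of the group. It was at 0.3263 and 5.112 FPKM in control replicates 1 and 2 and at 0.5263 and 1.511 FPKM in DKK2 replicates 1 and 2. Again both libraries numbered 2 were above both numbered 1, but the step was 15.7-fold in the controls and 2.87-fold with DKK2. Gzmg passed the filter on low values, a mean of at least 1 FPKM, only through the libraries numbered 2. Its values rest on few fragments. The neighbouring gene Gzmn, with a transcript of similar length, had 0.02193 and 0.06247 FPKM in the controls and 0 in both DKK2 libraries. Its 2 values stand in a ratio of 2.85, the same ratio that the worth of 1 fragment has between these libraries. If each is 1 fragment, Gzmg rests on about 14.9 and 81.8 fragments in control replicates 1 and 2, and on 9.57 and 27.6 in DKK2 replicates 1 and 2.

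**Figure D1:**
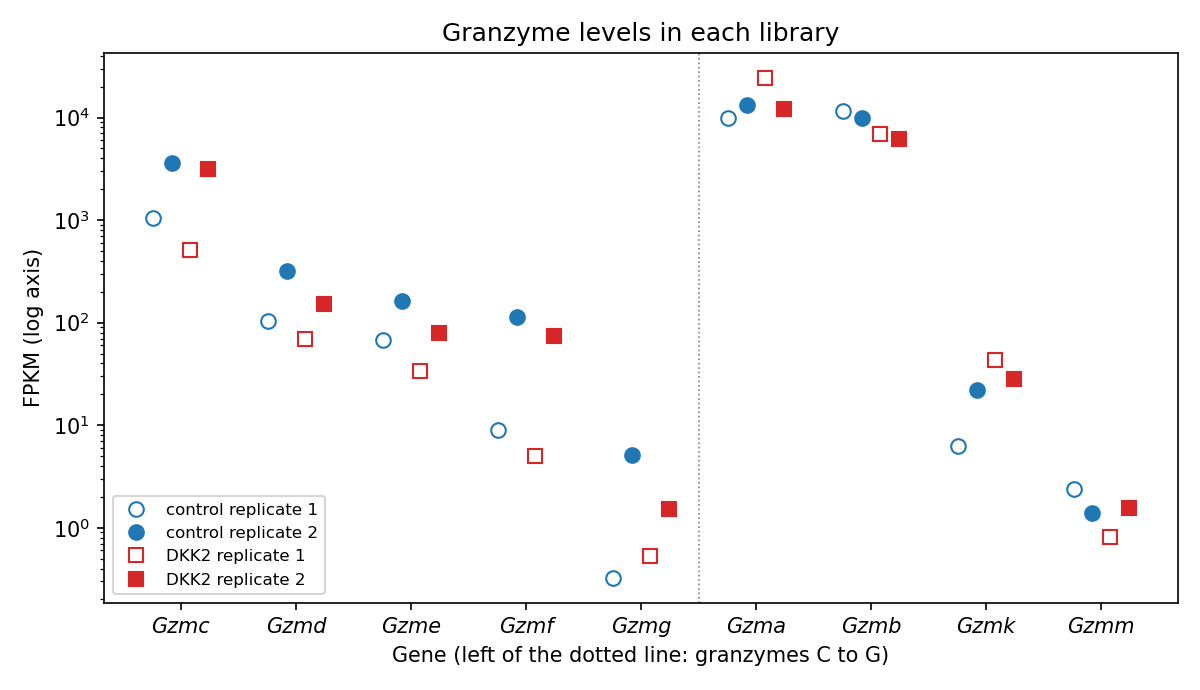
FPKM (log axis) of granzymes C to G, left of the dotted line, and of granzymes A, B, K and M, right of it; circles are controls, squares DKK2, open symbols replicate 1 and filled symbols replicate 2. Each granzyme from C to G has both filled symbols above both open ones, as in Gzmc at 3597 and 3123 against 1051 and 506.3 FPKM, and none of the granzymes on the right does.

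The order of levels was Gzmc, Gzmd, Gzme, Gzmf and Gzmg in each of the 4 libraries. Over the libraries, the range of Gzmc lay wholly above that of Gzmd. The ranges of Gzmd and Gzme overlapped, as did those of Gzme and Gzmf and, narrowly, those of Gzmf (from 4.992 FPKM) and Gzmg (up to 5.112 FPKM). Within a library the ratio of Gzmd to Gzme was nearly constant, from 1.52 in control replicate 1 to 2.04 in DKK2 replicate 1. The ratio of Gzmf to Gzmc was 0.00857 and 0.00986 in the libraries numbered 1, control and DKK2, and 0.0319 and 0.0239 in those numbered 2. Gzmf therefore made up more of the group where the whole group was high, in both treatments. The ratio of Gzmg to Gzmc kept to neither grouping, at 0.00031 and 0.00142 in control replicates 1 and 2 and 0.00104 and 0.000484 in DKK2 replicates 1 and 2.

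Among all 10 granzyme genes of the table, granzymes C to G together held 5.44% of the summed FPKM in control replicate 1 and 15.3% in control replicate 2. With DKK2 they held 1.93% and 15.8%. Gzmc supplied 82.5% to 91.1% of the sum of the group in every library. In control replicate 2 and DKK2 replicate 2 Gzmc reached 0.363 and 0.511 of the level of Gzmb, against 0.0911 and 0.0734 in the libraries numbered 1.

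**Figure D2:**
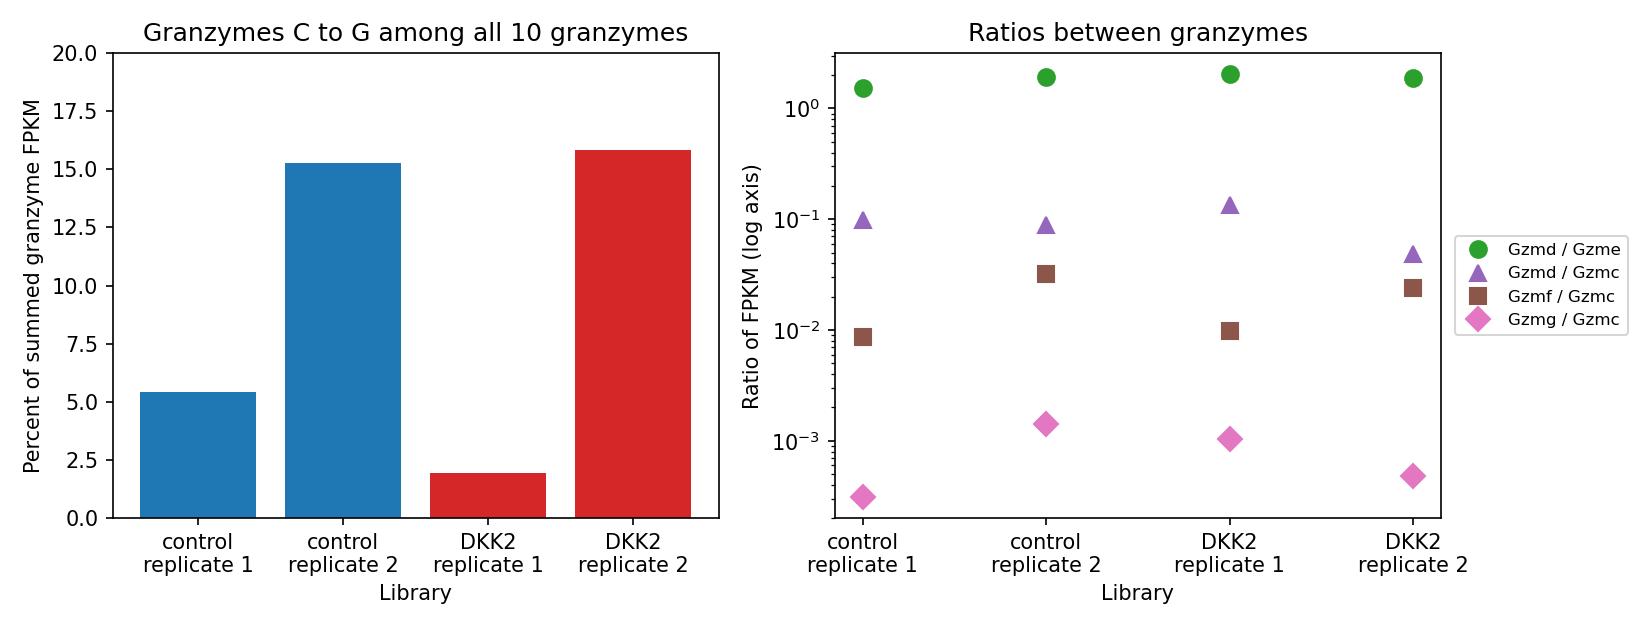
Left, percent of the summed FPKM of all 10 granzymes that came from granzymes C to G in each library (bars from 0); right, FPKM ratios between pairs of granzymes on a log axis. The libraries numbered 2 stand at 15.3% and 15.8% against 5.44% and 1.93%, the ratio of Gzmd to Gzme stays between 1.52 and 2.04, and that of Gzmf to Gzmc is higher in both libraries numbered 2.

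For all 5 genes both libraries numbered 2 lay above both numbered 1. Over all genes tested, 12.5% had this arrangement and 16% the opposite one. Since the genes were chosen for it, nothing is read from their count. In 4 of the 5 genes the difference between replicates was at least 1 on the log2(FPKM + 1) scale in both groups, as it was in 1.78% of all genes tested. The choice bears on this count as well. The median difference over the group, replicate 2 minus replicate 1, was 1.77 in the controls and 1.21 with DKK2, beside -0.08 and 0.07 over all genes.

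None of the other granzymes shared the arrangement. Gzmb, the neighbour of Gzmc and a potent inducer of target cell death, was at 11540 and 9908 FPKM in control replicates 1 and 2 and at 6895 and 6115 FPKM with DKK2, so that replicate 2 was slightly the lower library in each group. Gzma, a tryptase encoded on another chromosome, had 9890 and 13350 FPKM in the controls and 24310 and 12090 FPKM with DKK2. It was highest in DKK2 replicate 1, the library in which Gzmc, Gzmd, Gzme and Gzmf were lowest. Gzmk, which is typical of some T cells, stood at 6.322 and 22.12 FPKM without DKK2 and at 42.93 and 28.06 FPKM with it. Gzmm, a granzyme of innate lymphocytes, was at 2.36, 1.377, 0.8067 and 1.566 FPKM.

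The comparison of the design, DKK2 against control, was set out for these genes within each replicate number and then over the groups. The labels do not tie libraries that share a number, so setting them side by side is a description and not a paired test. With DKK2, 4 of the 5 genes were lower at both numbers, as were 20.6% of all genes tested. The steps were 0.482- and 0.868-fold for Gzmc in the pairs numbered 1 and 2, 0.661- and 0.475-fold for Gzmd, 0.492- and 0.483-fold for Gzme and 0.554- and 0.652-fold for Gzmf. Gzmg was 1.61-fold higher with DKK2 in the pair numbered 1, at under 1 FPKM in both libraries, and 0.296-fold in the pair numbered 2. For comparison, Gzmb was 0.597- and 0.617-fold.

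In the fit across all genes, the difference of DKK2 minus control on the log2(FPKM + 1) scale was -0.63 ± 1.05 for Gzmc (SE of limma's moderated fit, n = 2 libraries a group). It was -0.83 ± 0.67 for Gzmd, -1.02 ± 0.60 for Gzme, -0.68 ± 1.64 for Gzmf and -0.54 ± 0.82 for Gzmg. The 95% interval ran from -2.58 to 0.54 for Gzme, the narrowest, and from -4.92 to 3.56 for Gzmf, the widest. Every interval of the 5 spans 0. The median over the group was -0.68, beside -0.05 over all genes. The number of the 5 genes that passed limma with Benjamini-Hochberg adjustment was 0, against 0.0326% (4) of all genes tested. For none of the 5 genes did both DKK2 libraries lie below both controls, an arrangement of 14.8% of all genes. Their choice fixed a wide spread within the groups. The SEs and intervals of the 5 genes and both counts are therefore not read as a result about them. Without control replicate 2 the median of the group turned to 0.26, with 3 of the 5 genes above 0. Without DKK2 replicate 1 it was -0.18, with 2 of the 5 above 0 (Gzmc at 0.68 and Gzmf at 1.15). Without control replicate 1 it was -1.64, and without DKK2 replicate 2 it was -1.63. Among the other granzymes, Gzmb had a difference of -0.72 ± 0.39 (95% interval -1.74 to 0.30), Gzma 0.58 ± 0.55, Gzmk 1.46 ± 0.61 and Gzmm -0.39 ± 0.42, each with a limma adjusted p of 0.9996. The difference of Gzma was 0.07 without DKK2 replicate 1 and 0.13 with quantile normalization. That of Gzmk was 0.63 without control replicate 1 and 2.29 without control replicate 2, and that of Gzmm was -0.14 without either control replicate 1 or DKK2 replicate 1 and -0.64 and -0.65 without control replicate 2 or DKK2 replicate 2.

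**Figure D3:**
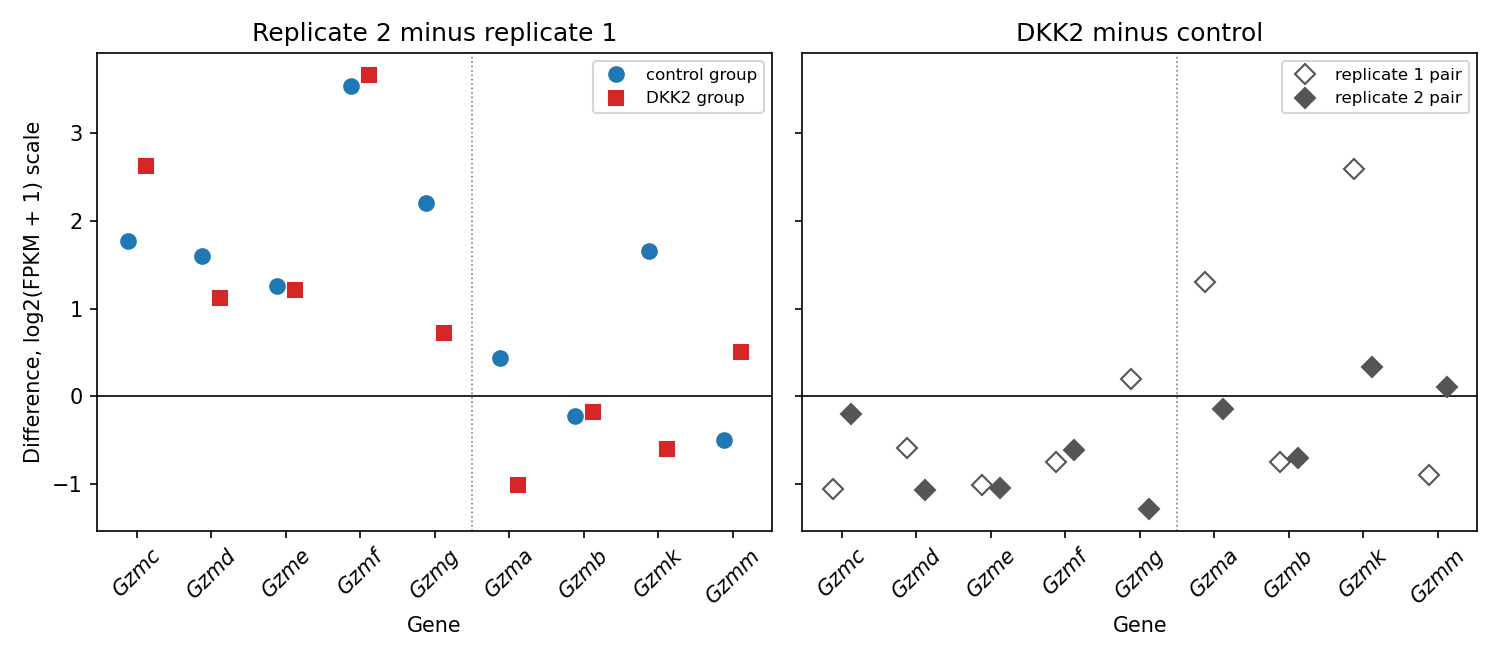
Differences on the log2(FPKM + 1) scale for each granzyme: left, replicate 2 minus replicate 1 within the control group (circles) and within the DKK2 group (squares); right, DKK2 minus control within the pair numbered 1 (open) and the pair numbered 2 (filled). On the left, granzymes C to G are above 0 in both groups, up to 3.53 and 3.66 for Gzmf; on the right, 4 of these 5 are below 0 in both pairs, as is Gzmb.

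The regions just before the starts of these genes resemble each other, as the transcripts do, and are shown because the 5 genes share a pattern over the libraries. RefSeq windows (build GRCm38.p6, which is not the build of the deposited values, mm9) were found for all 5 genes by symbol. The last 150 bases before the annotated transcription start are printed 5′ to 3′ on the strand of the gene, with the 8 aligned bases at the cyclic AMP response element (CRE) in capitals. Gzmb, which did not share the pattern, is given for contrast and has no capitals. The windows are chr14:56234658-56234807 for Gzmc, chr14:56132594-56132743 for Gzmd, chr14:56120626-56120775 for Gzme, chr14:56211408-56211557 for Gzmf, chr14:56159580-56159729 for Gzmg and chr14:56262335-56262484 for Gzmb, all on the minus strand.
Gzmc: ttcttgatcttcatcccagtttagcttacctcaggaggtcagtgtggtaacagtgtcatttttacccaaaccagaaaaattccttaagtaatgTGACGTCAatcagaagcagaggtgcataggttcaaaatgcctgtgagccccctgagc
Gzmd: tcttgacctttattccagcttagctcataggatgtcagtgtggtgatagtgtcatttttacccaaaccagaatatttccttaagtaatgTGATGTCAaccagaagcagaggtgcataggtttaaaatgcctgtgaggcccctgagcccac
Gzme: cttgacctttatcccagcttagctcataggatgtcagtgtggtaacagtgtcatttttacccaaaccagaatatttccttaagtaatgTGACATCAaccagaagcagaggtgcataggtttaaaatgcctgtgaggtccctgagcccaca
Gzmf: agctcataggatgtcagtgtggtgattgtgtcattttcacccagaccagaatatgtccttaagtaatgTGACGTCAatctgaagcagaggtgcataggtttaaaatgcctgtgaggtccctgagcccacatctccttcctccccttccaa
Gzmg: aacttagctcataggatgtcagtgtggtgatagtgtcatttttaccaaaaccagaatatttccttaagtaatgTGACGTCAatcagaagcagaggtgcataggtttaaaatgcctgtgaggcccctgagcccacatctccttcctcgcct
Gzmb: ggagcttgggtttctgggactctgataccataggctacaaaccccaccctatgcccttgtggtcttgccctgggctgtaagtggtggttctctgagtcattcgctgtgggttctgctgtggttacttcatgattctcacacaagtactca

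Within 250 bases before the start, the 10 pairs among granzymes C to G were 70.2% to 94.8% identical, with a median of 79%. Gzmd and Gzme were the closest pair, and they were also the genes with the nearly constant ratio. Their transcripts were the most alike of the group as well, at 90.04% identity. What lies behind the ratio was not tested. Against Gzmb the 5 windows were 43.4% to 47.5% identical, and against the unlinked Gzma, Gzmk and Gzmm 44% to 48.5%, so Gzmb was no closer than genes on other chromosomes. Gzmn, which lies within the cluster and was at or near 0, had a transcript 64.9% to 80.3% identical to those of granzymes C to G but an upstream window only 44.8% to 46.9% identical. The upstream range lies within that of the unlinked genes, and a link to the level of Gzmn was not tested. In a joint alignment of the 5 windows 164 of 275 positions (59.6%) were identical in all. The longest run shared exactly by all 5 had 20 bases, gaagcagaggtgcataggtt, and began 45 bases before the start in Gzmc and 70 bases before it in Gzmf.

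A palindromic CRE, TGACGTCA, stood a few bases upstream of that run in Gzmc, Gzmf and Gzmg. It began 57, 82 and 77 bases before the start, and 1.55% of all 32817 promoter windows of this length hold it. Gzmd has C4T and Gzme G5A against it, counted from 1 at the first base of the motif. The genes with the intact motif include the highest (Gzmc) and the lowest (Gzmg) of the group. The replicate step was 2.19- to 3.05-fold in the pair of genes without it and 2.87- to 15.7-fold in those with it. These ranges overlap, and both ends of the second are values of Gzmg, which rests on few fragments. The genes were chosen on this step, so nothing is read from the split, and a role of the motif was not tested. The RUNX motif TGTGGTT was found in all 5 windows, as AACCACA on the strand shown and upstream of the stretch printed above (169 to 196 bases before the start), and in 4.39% of all windows. It was also in the window of Gzmb, nearer the start. The shorter string TGTGGT, which was not searched, stands in the printed stretch of each of the 5 genes and of Gzmb. Because the 5 windows resemble each other, the 5 matches are not independent. No match was found in the 5 windows for a STAT site (TTCNNNGAA, in 7.01% of all windows), an AP-1 site (TGANTCA, 6.75%), a TCF/LEF site (ATCAAAG, 3.21%), a T-box site (AGGTGTNA, 2.68%) or TATAAA (12.4%). Gzmb differed from the 5 in having an AP-1 match, TGAGTCA, which began 58 bases before the start. Both strands were searched and no 2 of the matches overlapped. These motifs were chosen after the windows had been seen. A match is a string of letters in the reference, and no binding was measured here.

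**Figure D4:**
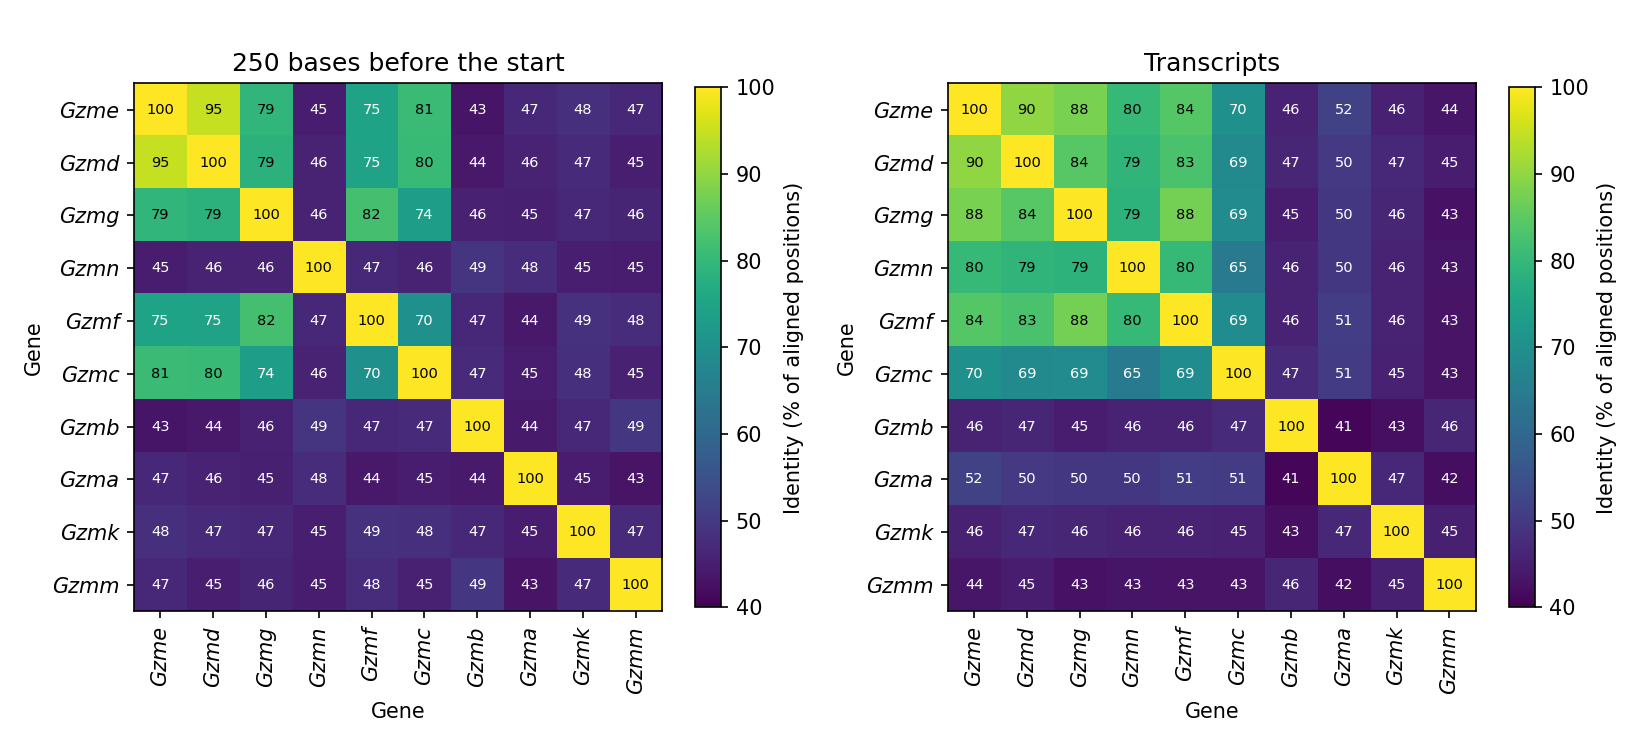
Identity in percent of aligned positions between pairs of granzymes, for the 250 bases before the start (left) and for the transcripts (right); genes from Gzme to Gzmb are in their order along the chromosome. The pairs of granzymes C to G reach 70.2% to 94.8% upstream, Gzmn is alike in its transcript but not upstream, and Gzmb stands at 43.4% to 47.5% upstream.

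Such likeness bears on the counting. Of the stretches of 50 bases in a GENCODE transcript, 21.9% in Gzmd, 20.6% in Gzme, 19.8% in Gzmg, 7.36% in Gzmf and 4.14% in Gzmc occur exactly in another granzyme transcript. For Gzma, Gzmb, Gzmk and Gzmm the share was 0. With stretches of 100 bases it was at most 0.247% in any of the 5. Read length, and how fragments that match several genes were divided, are not given in the sources used here. Values of Gzmd, Gzme and Gzmg are uncertain to that extent, and those of Gzmg more so, because the related transcripts are far more abundant. Gzmd and Gzme shared more stretches of 50 bases with each other than with any other granzyme, so their ratio is uncertain as well.

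Genes that handle granzymes were taken next. Of 7 genes for processing and storage, 0 had both libraries numbered 2 above both numbered 1, and of 6 genes for granzyme inhibitors also 0, where 12.5% of all genes had this arrangement. In lists this short a count of 0 is near that share. The inhibitor gene Serpinb6b had the opposite arrangement, with 410 and 301.8 FPKM in control replicates 1 and 2, against 311.7 and 251.2 FPKM with DKK2. Ctsc, the dipeptidase that activates granzymes, was at 102.3, 122.1, 150.8 and 124.3 FPKM in control replicates 1 and 2 and DKK2 replicates 1 and 2. Ctsh, another protease that can do so and that myeloid cells express highly, was at 0.2088 FPKM in control replicate 1 and at 63.72, 73.47 and 106 FPKM in the others. Srgn, the proteoglycan core on which granzymes are packed, was at 717.2, 573.5, 516.9 and 702.9 FPKM, and perforin (Prf1) at 1207, 954.8, 648.9 and 850.7 FPKM. The inhibitor Serpinb9 was at 465.6, 464.2, 368.8 and 267.7 FPKM. In the comparison of DKK2 with control, 5 of the 7 processing and storage genes were higher in the mean and 2 lower (median 0.13). Of the 6 inhibitors 2 were higher and 4 lower (median -0.27), and 0 of these 13 passed limma with adjustment over all genes. Among all 12275 genes tested, 5357 were higher and 6918 lower (median -0.05), and 4 passed.

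Of 8 genes of the IL-15 receptor, JAK and STAT list, 0 had the arrangement of granzymes C to G and 0 the opposite one, beside 12.5% and 16% of all genes. Of the 8 genes 7 were higher in DKK2 replicate 2 than in DKK2 replicate 1 (median 0.68). In control replicate 2, 6 were lower than in control replicate 1 (median -0.21). Among all 12275 genes tested, 6603 were higher in DKK2 replicate 2 (median 0.07) and 7098 lower in control replicate 2 (median -0.08). In a list of 8 genes neither count is read as a result. Il2rb, the signalling chain shared by the IL-2 and IL-15 receptors, had 1506 and 1182 FPKM in the controls and 629.4 and 1292 FPKM with DKK2. Stat3 was at 131.1 and 114.3 FPKM and at 41.67 and 167.1 FPKM.

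Of 16 genes induced by IL-2 and IL-15, 4 had both libraries numbered 2 above both numbered 1 (12.5% of all genes), and 1, the cytokine gene Osm, had both below (16% of all genes). The 4 were Il2ra, the high-affinity IL-2 receptor chain (39.27, 46.49, 15.87 and 39.52 FPKM in control replicates 1 and 2 and DKK2 replicates 1 and 2), Tnfrsf9, the costimulatory receptor 4-1BB (456.3, 640.3, 420.3 and 637 FPKM), the lymphotoxin gene Ltb and the feedback inhibitor gene Socs3. In Il2ra the gap between the nearest libraries was under 1 FPKM. In the comparison of DKK2 with control 11 of the 16 were lower and 5 higher, with a median of -0.29, and 0 passed limma with adjustment over all genes. Beside them, 6918 of all 12275 genes tested were lower and 5357 higher (median -0.05), and 4 passed. Among 11 transcription factors of cytotoxic lymphocytes, 1 had the arrangement, Runx3, at 31.08, 37.05, 30.1 and 44.46 FPKM, and 1 the opposite one, Id2, at 796.3, 754.2, 963 and 645.3 FPKM. Eomes was at 154.6 to 198 FPKM and Tbx21, the factor T-bet, at 34.51 to 47.46 FPKM, both with little spread beside that of Gzmf. Of 18 genes of DNA replication and mitosis, 1 had the arrangement and 4 the opposite one. That 1 was the proliferation marker Mki67, at 77.72 and 106.8 FPKM in the controls and 81.88 and 98.95 FPKM with DKK2.

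The locus holds genes of other cells beyond Gzme. Ctsg, a protease of myeloid granules, had 0 and 13.85 FPKM in control replicates 1 and 2, against 7.909 and 23.18 FPKM with DKK2. Both libraries numbered 2 were above both numbered 1 for Ctsg, as in 12.5% of all genes tested. Of a list of 8 mast cell and myeloid proteases 3 were tested, and 1, Ctsg, had this arrangement. Cma1, also tested, was at 6.518, 7.535, 29.67 and 15.07 FPKM in control replicates 1 and 2 and DKK2 replicates 1 and 2. Cma2, Mcpt1 and Mcpt2 did not pass the filter on low values. Mcpt8, a basophil protease, was at 4.014, 78.23, 98.55 and 100 FPKM, which sets control replicate 1 apart and not the libraries numbered 1. Mcpt4 and Mcpt9, proteases of mast cells, were listed at 0 in all 4 libraries.

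Markers of other cells moved with the replicate numbers in part. All 6 B cell markers had both libraries numbered 2 above both numbered 1. Their summed level was 0.64 and 19 FPKM in the controls and 4.51 and 31.7 FPKM with DKK2, with none listed at 0. Of 10 T cell markers 5 did (Cd4, Cd8a, Cd8b1, Cd5 and Bcl11b). Cd8b1 had 0 and 3.895 FPKM in control replicates 1 and 2 and 0.2038 and 5.167 FPKM with DKK2, and Cd8a was also at 0 in control replicate 1. The others did not. Cd3g was at 23.1, 87.28, 168.6 and 116.9 FPKM in control replicates 1 and 2 and DKK2 replicates 1 and 2. In the same order Cd3d was at 4.799, 20.06, 37.16 and 28.92 FPKM. Both were lower in DKK2 replicate 2 than in DKK2 replicate 1. Cd3e (0.6005, 13.99, 17.45 and 20.4 FPKM), the T cell receptor chain gene Trac (25.06, 28.92, 37.56 and 42.2 FPKM) and Cd6 (0.1538, 0.5661, 0.6736 and 1.188 FPKM) rose in both groups. The summed level of the T cell markers was 53.9 and 160 FPKM in the controls and 263 and 222 FPKM with DKK2. Of 8 markers of type 1 innate lymphoid cells and tissue-resident NK cells 4 did (Cxcr6, Il7r, Tmem176a and Rora), with summed levels of 34.6 and 178 FPKM and of 133 and 200 FPKM, and none at 0. Of 8 mast cell and basophil markers 3 did (Cpa3, Ms4a2 and Prss34), with sums of 10.6 and 218 FPKM and of 228 and 300 FPKM. In that list Mcpt4 was at 0 in all 4 libraries, Tpsb2 in all but DKK2 replicate 2, and Fcer1a and Prss34 in control replicate 1. Of the 11 NK cell markers 0 did, and 6 had the opposite arrangement, both libraries numbered 2 below both numbered 1 (Ncr1, Klrb1c, Klrk1, Cd244, Klrd1 and Klre1), beside 16% of all genes. Ncr1 had 303.4 and 192.8 FPKM in control replicates 1 and 2, against 388.6 and 197.2 FPKM with DKK2. The summed level of the NK cell markers, most of it Gzma, was 13765 and 16462 FPKM in the controls and 28416 and 15184 FPKM with DKK2, with none at 0. Of 7 monocyte and macrophage markers 0 did, with sums of 112 and 351 FPKM in the controls and 872 and 536 FPKM with DKK2, and with C1qa and C1qc at 0 in control replicate 1. Of 8 neutrophil markers 0 did, with sums of 1.04 and 61.9 FPKM and of 3508 and 121 FPKM, and with Camp, Ltf, Elane and Retnlg at 0 in control replicate 1. The share over all genes is the 12.5% given above. The part of these cells in the levels of granzymes C to G was not tested.

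Over the 4 libraries, the 10 genes whose profile was nearest to the mean profile of granzymes C to G (Euclidean distance between log2(FPKM + 1) profiles, each centred on its own mean) were Ttll11, Il22, Il17f, Gfi1b, Gm17364, Igkv6-32, Serpinb2, Sema6d, Gstm5 and Alpk2. Their distances were 0.374 to 0.766, beside a median of 2.18 over all other genes tested. Gzmc and Gzmd lay within that range (0.585 and 0.631), Gzme and Gzmg just beyond it (0.793 and 0.841), and Gzmf, with its wider step, at 1.63. The likeness rests on the same libraries that chose the granzymes. Most of these genes were at low levels. Ttll11, a tubulin glutamylase gene, was at 1.116, 6.763, 0.324 and 2.571 FPKM in control replicates 1 and 2 and DKK2 replicates 1 and 2. The cytokine gene Il22 had 3.535 FPKM in control replicate 2 and 1.956 FPKM in DKK2 replicate 2, and both libraries numbered 1 were at 0. Il17f, another cytokine gene, was at 0.01696, 4.301, 0.04255 and 3.045 FPKM, and Serpinb2, a serine protease inhibitor gene, at 0, 4.262, 0.2568 and 2.478 FPKM. Gm17364 was the highest of the 10, at 4.74, 35.94, 5.768 and 20.27 FPKM. With a pseudocount of 0.1 in place of 1, only 5 of these 10 were again among the nearest 10.

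**Figure D5:**
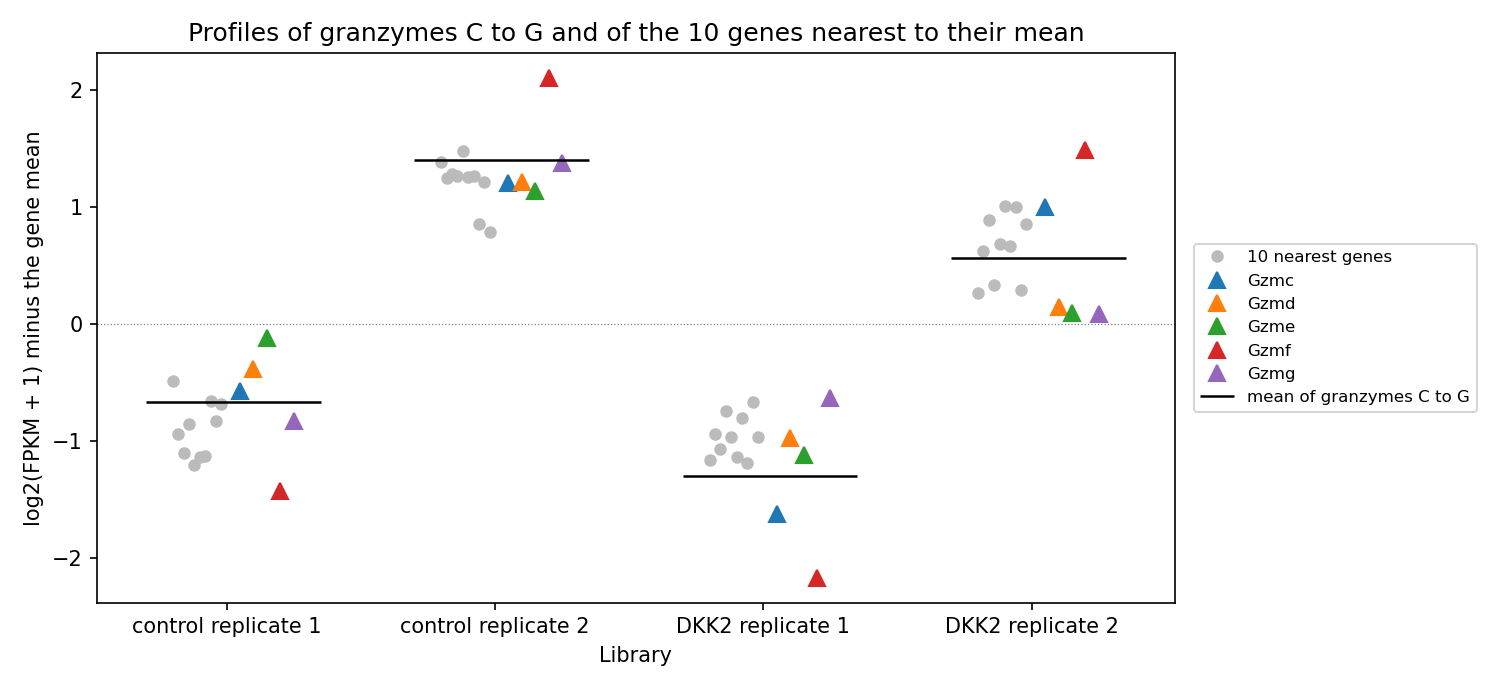
Profiles over the 4 libraries as log2(FPKM + 1) minus the mean of the gene: triangles are granzymes C to G, grey points the 10 nearest genes, and black lines the mean of the 5 granzymes. The mean lies at -0.67 and 1.41 in control replicates 1 and 2 and at -1.30 and 0.56 in DKK2 replicates 1 and 2, and Gzmf lies farthest from it in each library.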

How the data were processed

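The authors deposited 1 table of FPKM values with 4 columns, which were matched to the 4 libraries by name; 0 further value columns were left aside. Cuffdiff 2.1.0, TopHat2 2.1.0, CASAVA and edgeR, with mm9 as the build, are listed without roles per the submitters' processing notes; annotation, strand setting and read length are not given in the sources used here. FPKM carries no read counts, so log2(FPKM + 1) was fitted with limma 3.58.1 in R 4.3.3 (lmFit, eBayes with a trend, two-sided, Benjamini-Hochberg over the 12275 rows with a mean of at least 1 FPKM, threshold 0.05). The script was tested on simulated data. With 2 libraries a group, p-values measure only the spread between libraries, which may be technical.

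Relative depth came from the most frequent ratio between libraries among genes under 0.3 FPKM (ratios equal within 0.5%; 280 of 3397, 357 of 3473 and 315 of 3535 genes for control replicate 2, DKK2 replicate 1 and DKK2 replicate 2, each against control replicate 1). Promoter windows are RefSeq's (GRCm38.p6) and transcripts are those of GENCODE M21. Pairs were aligned globally with Biopython 1.88, and the 5 windows jointly with MAFFT 7.526. Protein identity was planned and not computed here. The genes, lists and rules were chosen with earlier results of these data known. By the rule for named genes, any gene of the lists could be named, with the 10 genes at the smallest distance; marker genes were named by whether they shared the arrangement or were at 0, after their values were seen.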

Additional observations from a re-analysis of the deposited data

How the results depend on the processing

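Over all genes limma called 4 with Benjamini-Hochberg adjustment (226 at an unadjusted p under 0.05). It called 0 without a filter (949 unadjusted), 0 in each fit that omitted 1 library (150 to 855 unadjusted), and 8 with a replicate block; 3 to 5 were called in the other 5 alternatives. The replicate block cannot change a difference where each group has 1 library of each number, and it called 0 of the granzymes. Its SE fell for granzymes C to G, which were chosen for this pattern, as from 1.64 to 0.36 for Gzmf. It fell less for Gzmk, and rose for Gzma, Gzmb (from 0.39 to 0.65) and Gzmm. The deviations of same-numbered libraries from their group means had a correlation of 0.01 over all genes. That value does not tell whether same-numbered libraries share an animal, a culture or a day. The median difference of granzymes C to G was between -0.62 and -0.81 under the alternatives that keep all libraries, and ran from -1.64 to 0.26 when single libraries were left out (3 of 5 genes higher without control replicate 2, and 2 of 5 without DKK2 replicate 1). Both libraries numbered 2 stayed above both numbered 1 in 5 of 5 genes with a pseudocount of 0.1, with quantile normalization and with median scaling. Taken over granzymes other than Gzma and Gzmb, granzymes C to G held 99.3% and 99.4% in control replicates 1 and 2 and 93.4% and 99.1% in DKK2 replicates 1 and 2. Of the 10 nearest genes 5 were shared with a pseudocount of 0.1 and 8 with quantile normalization. Of the processing, storage and inhibitor genes, Nkg7, Srgn, Cst7, Serpinb6a and Serpina3g changed the sign of their difference under some alternative. For Nkg7 the difference was 0.05 and turned to -0.054 with quantile normalization. When single libraries were left out it ran from -0.11 to 0.21 for Nkg7, -0.31 to 0.13 for Srgn, -0.0050 to 0.27 for Cst7, -0.23 to 0.24 for Serpinb6a and -0.57 to 0.15 for Serpina3g. Differences in Gzmg are limited by its few fragments.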
